A study of Mus musculus with 28 samples.

Results

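The bins of mouse chromosomes 3, 6, 7 and 8 are 568 stretches of 1 Mb of the GRCm38 genome, of 2388 autosomal bins in all. There were 157 on chromosome 3, 144 on chromosome 6, 143 on chromosome 7 and 124 on chromosome 8, and the other 15 autosomes held 1818. A bin was kept where a copy number segment reached it in each of the 24 tumours of the series. These 4 chromosomes were chosen by their measured copy ratio, which was lower in thymic lymphomas than in sarcomas, so that difference is described below and not tested. On chromosome 6, 2 bins that touch 40891296 to 41558371, the region of the T-cell receptor beta genes, were left out, since T cells cut DNA out of it when they build their receptor. The left-out bin at 41000001 to 42000000 had a median log2 copy ratio of -0.82 over the 14 thymic lymphomas. In the nearest kept bins on either side it was -0.29 and -0.27. A bin on chromosome 6 and 3 bins on chromosome 8 were reached in 23 tumours and so were not members.

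Tumour DNA was sequenced as exomes, the captured protein-coding part of the genome, in mice with a germline p53 change, and tumours were collected when the animals reached their end point. AD animals had the genotype p53 AD/-, an allele for a dimeric p53 protein opposite a null allele. RP animals had the genotype p53 RP/-, an allele for a monomeric protein opposite a null allele. Each genotype gave 7 thymic lymphomas and 5 sarcomas, and the mice were 50% BALB/C and 50% C57BL6 by strain. All 4 groups therefore carried the null allele, and no tumour with wild-type p53 was analysed here. Ages were not given in the sources used here. Tumours are numbered within their group by their order in the series. The 24 tumours carry 24 different numbers in their titles, and the 4 ear samples repeat the number of a tumour. Each tumour was treated as 1 replicate. Litters are not given, and p-values measure the spread between these tumours.

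p53 is a transcription factor that works as a tetramer, and cells that lack it tolerate gains and losses of whole chromosomes. A copy number change can take a whole chromosome, as after a mis-segregated division, or a part of it, as after a break. Thymic lymphoma is a T-cell tumour and the usual tumour of mice without p53, and sarcomas are tumours of connective tissue such as muscle, fat or bone. Several genes used by T cells lie on these chromosomes, among them Cd4 and Cd8a on chromosome 6, Il2 and Il7 on chromosome 3 and Jak3 on chromosome 8, and so do Nras and Hras, which encode growth signalling proteins.

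Each value below is a log2 copy ratio, which sets the tumour against a comparison DNA. A bin was called lost at -0.3 or below and gained at 0.3 or above. Whole losses and gains are those that cover 80% or more of a chromosome's bins, and partial ones cover 20% to 80%. Admixed normal cells shrink a tumour's values, by an amount that cannot be known here, so a loss in some tumour cells and a loss diluted by normal cells cannot be told apart. The tables held 59 to 517 segments per tumour and 211948 to 212450 markers, with no read depth given. The labels were checked on the T-cell receptor alpha and gamma loci, other regions that T cells cut. At the alpha locus a segment lay at least 0.3 below its chromosome in 14 of 14 thymic lymphomas and in 1 of 10 sarcomas, with lowest segments of -4.59 to -2.0 and of -0.84 to 0.30. At the gamma locus the counts were 10 of 14 and 0 of 10, with lowest segments of -4.38 to -0.31 and of -0.16 to -0.04.

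Thymic lymphomas lost chromosomes 3, 6, 7 and 8 in overlapping sets of tumours, and the number of whole losses called in each genotype depended on the cutoff. Chromosome 3 was lost as a whole in 2 AD and 4 RP thymic lymphomas. For chromosome 6 the count was 1 AD and 3 RP tumours, with part of it lost in another 2 AD and 1 RP. Whole losses of chromosome 7 numbered 0 in AD and 3 in RP tumours, and partial ones 3 and 1. On chromosome 8 whole losses numbered 0 and 3, and partial ones 1 and 1. The AD counts of 0 did not hold at a cutoff of 0.2. There, whole losses numbered 5 AD and 5 RP tumours for chromosome 7, and 3 AD and 4 RP tumours for chromosome 8. No difference in mean level between AD and RP thymic lymphomas was detected on either chromosome (exact permutation p = 0.737 and 0.385). Some partial calls lay on chromosomes with a nearly flat level close to the cutoff, so they need not mark a lost region. On chromosome 8, bins ran from -0.3166 to -0.2768 in AD thymic lymphoma 4 and from -0.3006 to -0.2509 in RP thymic lymphoma 4. On chromosome 7 of RP thymic lymphoma 1, segments of 1 Mb or more outside the Vmn1r block described below stood at -0.34 to -0.30. Over all 4 chromosomes 37.6% of the bin values in thymic lymphomas were lost, against 20.1% over all autosomal bins. Since low values in thymic lymphomas chose these chromosomes, nothing is read from that gap.

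Among AD tumours, thymic lymphoma 4 came closest to the loss of all 4. It lost chromosomes 3 and 6 as a whole, with means of -0.35 each. Of the bins of chromosomes 7 and 8, 39.9% and 57.3% were lost, and the means of these chromosomes were -0.28 and -0.30. Thymic lymphoma 7 lost chromosome 3 as a whole at -0.34, 75% of the bins of chromosome 6 and 30.1% of those of chromosome 7. The means of chromosomes 6 and 7 were -0.31 and -0.35. Outside the Vmn1r block described below, its chromosome 7 stood at -0.30. The autosomal median of this tumour was -0.25, and no chromosome of the set kept its loss after centring.

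AD thymic lymphoma 6 split the set. Its chromosomes 6 and 7 stood at -0.28 and -0.34, and its chromosomes 3 and 8 at 0.04 and 0.01, and 34.3% of the bins of chromosome 7 were lost. In AD thymic lymphoma 3 chromosomes 3 and 7 stood at -0.28 and -0.25 and chromosome 8 at -0.04, and chromosome 6 was lost and gained in parts. AD thymic lymphomas 1 and 2 had all 4 means between -0.13 and -0.07, next to autosomal medians of -0.08 and -0.11.

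RP thymic lymphomas 2 and 7 lost all 4 chromosomes as a whole. RP thymic lymphoma 7 had means of -0.40 on chromosome 3, -0.39 on 6, -0.36 on 7 and -0.37 on 8, and all of its 568 bins were lost. RP thymic lymphoma 2 had -0.38, -0.36, -0.33 and -0.33 on the same chromosomes, with 558 bins lost. These profiles were nearly flat, with chromosome means that spanned 0.04 and 0.05 on the log2 scale within a tumour.

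RP thymic lymphoma 5 lost chromosomes 3, 6 and 7 and kept chromosome 8. Its means were -0.41, -0.41 and -0.38, against -0.07 on chromosome 8, which was the level of its autosomal median of -0.07. It was the only tumour to keep whole losses, 3 of them, after each value was centred on the tumour's own autosomal median.

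In RP thymic lymphoma 4 chromosome 7 stood above the other 3. As deposited, it lost all of chromosome 3 at -0.31, 32.6% of the bins of chromosome 6 and 60.5% of those of chromosome 8. The means of chromosomes 6 and 8 were -0.21 and -0.29, while chromosome 7 stood at 0.02 in a single segment of 142 Mb. Its autosomal median was -0.25, so after centring chromosomes 3, 6 and 8 stood at -0.06, 0.04 and -0.03 with no loss called, and chromosome 7 at 0.27. As deposited, its 0.02 was the only chromosome 7 mean above 0 among the 14 thymic lymphomas. After centring, AD thymic lymphoma 2 also stood above 0, at 0.0067. RP thymic lymphoma 1 lost chromosome 8 as a whole at -0.33 and 78.3% of the bins of chromosome 7, with chromosomes 3 and 6 at -0.26 and -0.27, just short of the cutoff.

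The remaining thymic lymphomas had intermediate levels. AD thymic lymphoma 5 had -0.22 and -0.21 on chromosomes 7 and 8 and -0.08 and -0.09 on chromosomes 3 and 6. Its chromosome 6 mean holds a distal gain, described below, and the rest of that chromosome stood at -0.24. RP thymic lymphoma 3 had -0.27, -0.26, -0.23 and -0.13 on chromosomes 3, 6, 7 and 8, with an autosomal median of -0.01, and no chromosome of it reached the cutoff. RP thymic lymphoma 6 had -0.13, -0.18 and -0.19 on chromosomes 3, 6 and 7 and 0.05 on chromosome 8.

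Counted over the set, 2 or more of the 4 chromosomes were lost as a whole or in part in 2 of 7 AD and 5 of 7 RP thymic lymphomas. After centring the count was 1 AD tumour, thymic lymphoma 4, and 1 RP tumour, thymic lymphoma 5. As deposited, the counts for none lost were 3 AD and 2 RP tumours. All 4 means were below 0 in 6 AD and 5 RP tumours. The mean of the 568 bins lay below that of the other autosomes in 14 of 14 thymic lymphomas, by -0.39 in RP thymic lymphoma 7 to -0.03 in AD thymic lymphoma 6. This direction follows from the choice of the chromosomes.

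**Figure D1:**
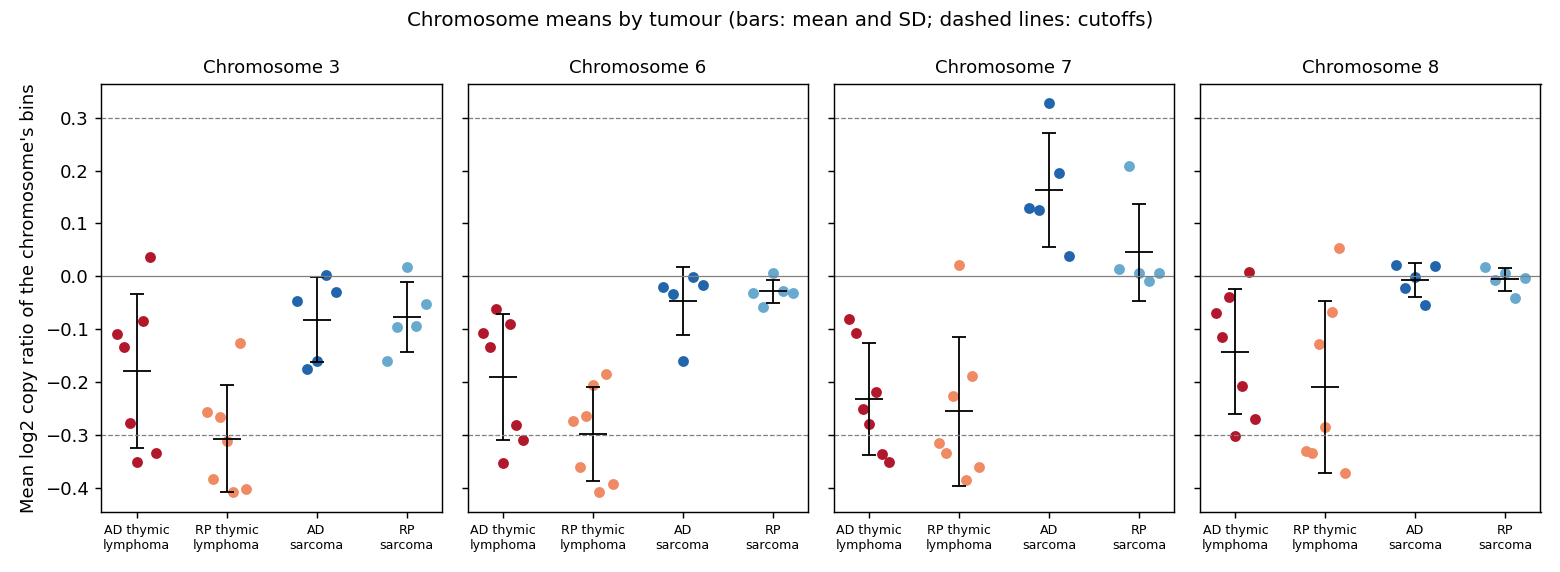
Mean log2 copy ratio of the bins of chromosomes 3, 6, 7 and 8 (one panel each, y axis) in AD thymic lymphomas, RP thymic lymphomas, AD sarcomas and RP sarcomas. Each point is a tumour, bars give the mean and SD, and dashed lines mark the cutoffs of -0.3 and 0.3. Thymic lymphomas spread from -0.41 to 0.05, and chromosome 7 is the panel where the sarcomas lie above 0 in 9 of 10 tumours.

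Within a tumour the levels of some of these chromosomes moved together. Over the 14 thymic lymphomas the means of chromosomes 6 and 7 had a Pearson r of 0.67 (permutation p = 0.00918, adjusted over 6 pairs 0.0395) and a Spearman rho of 0.79 (permutation p = 0.00135, adjusted 0.0081). Chromosomes 3 and 6 had an r of 0.62 (permutation p = 0.0197, adjusted 0.0395) and a rho of 0.72 (permutation p = 0.00509, adjusted 0.0153). Chromosomes 3 and 8 had the same r of 0.62 (permutation p = 0.0195, adjusted 0.0395), and their rho of 0.53 did not pass (permutation p = 0.0569, adjusted 0.0854). The values of a tumour share its offset and its share of normal cells, which move all chromosomes of that tumour at once, and the part of the normal cells in these correlations was not tested.

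By Pearson's r, 3 of the 6 pairs passed an adjusted p of 0.05. Pairs that involve the other autosomes were not tested, so whether such correlations are particular to these chromosomes cannot be told. Chromosomes 3 and 7 had an r of 0.34 (permutation p = 0.239, adjusted 0.287) and a rho of 0.55 (permutation p = 0.0457, adjusted 0.0854). Chromosomes 6 and 8 had an r of 0.46 (permutation p = 0.0995, adjusted 0.149) and a rho of 0.45 (permutation p = 0.104, adjusted 0.125). The lowest was between chromosomes 7 and 8, with an r of 0.18 (permutation p = 0.547, adjusted 0.547) and a rho of 0.23 (permutation p = 0.435, adjusted 0.435). RP thymic lymphomas 4 and 5, with chromosome 7 at 0.02 and -0.38 and chromosome 8 at -0.29 and -0.07, lay far apart on that plot.

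The pair of chromosomes 3 and 7 had 2 tumours against the trend, AD thymic lymphoma 6 with chromosome 3 at 0.04 and chromosome 7 at -0.34, and RP thymic lymphoma 4 with the reverse. Without the 2 tumours farthest from the median of chromosome 3, AD thymic lymphomas 5 and 6, its r was 0.65 (permutation p = 0.0232, adjusted 0.0463, n = 12). Without them the r of chromosomes 3 and 6 was 0.80 (permutation p = 0.00238, adjusted 0.00714), and that of chromosomes 3 and 8 was 0.62 (permutation p = 0.0346, adjusted 0.0519). For chromosomes 6 and 7, without AD thymic lymphomas 3 and 5, it was 0.83 (permutation p = 0.00099, adjusted 0.00594). The r of chromosomes 6 and 8 was then 0.47 (permutation p = 0.128, adjusted 0.154) and that of 7 and 8, without AD thymic lymphoma 1 and RP thymic lymphoma 4, 0.38 (permutation p = 0.222, adjusted 0.222).

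Within the 7 AD tumours, r was 0.31 for chromosomes 3 and 6, 0.66 for 6 and 7 and 0.67 for 3 and 8, and 0 of the 6 pairs passed (exact permutation, smallest adjusted p = 0.373). Within the 7 RP tumours, r was 0.87 for chromosomes 3 and 6 and 0.81 for chromosomes 6 and 7 (exact permutation, adjusted p = 0.0417 each), and 0.57, 0.44, 0.35 and 0.11 for 3 and 8, 3 and 7, 6 and 8, and 7 and 8. Whether the correlation differs between AD and RP tumours was not tested. After centring, chromosomes 6 and 7 had an r of 0.75 (permutation p = 0.00042, adjusted 0.00252), chromosomes 3 and 6 of 0.66 (permutation p = 0.00984, adjusted 0.0295) and chromosomes 3 and 8 of 0.62 (permutation p = 0.0189, adjusted 0.0379), over the 14 tumours. By rho the passing pairs were not the same. Chromosomes 3 and 8 did not pass, with a centred rho of 0.45 (permutation p = 0.112, adjusted 0.168). Chromosomes 3 and 7 passed, with a centred rho of 0.76 (permutation p = 0.00248, adjusted 0.00744), though their centred r of 0.47 did not (permutation p = 0.0846, adjusted 0.127).

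**Figure D2:**
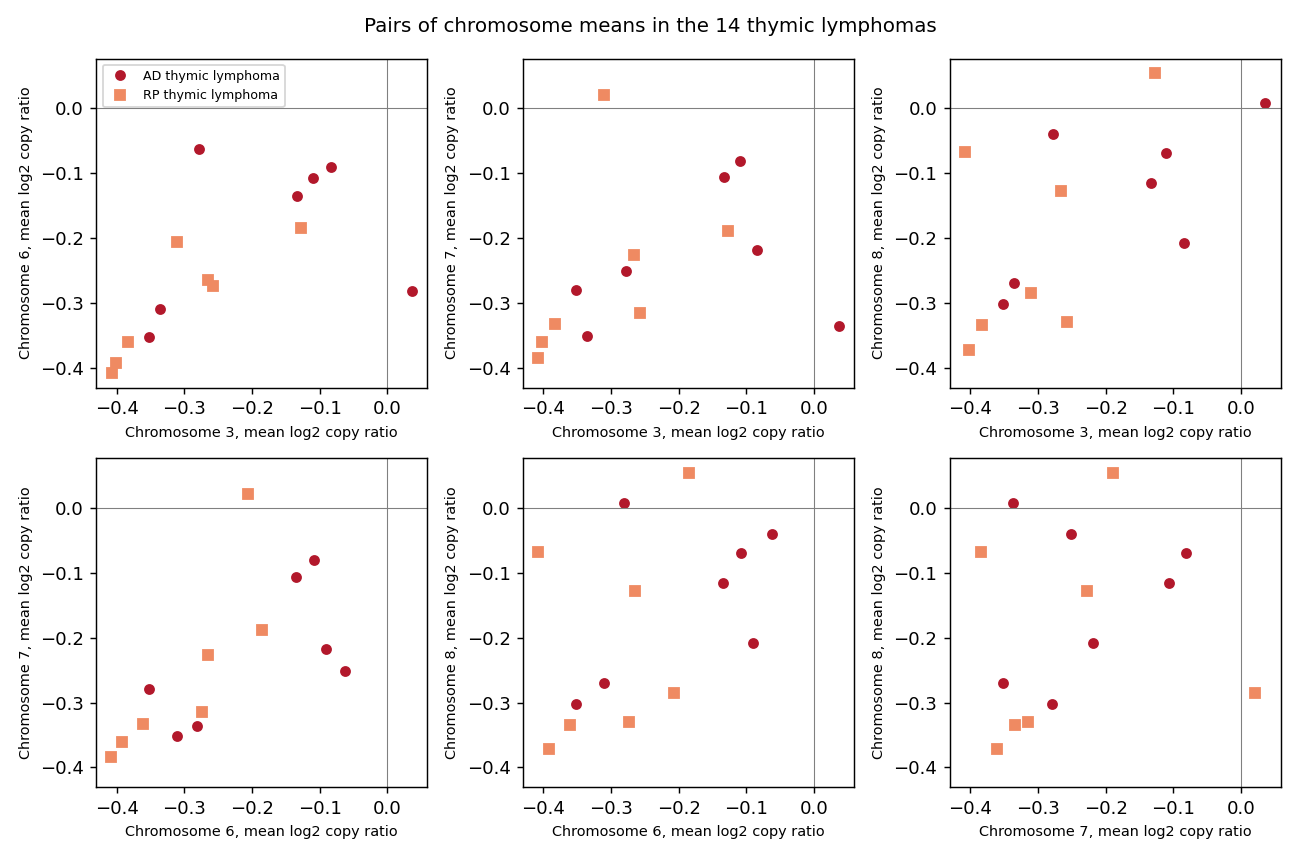
Mean log2 copy ratios of each pair of chromosomes 3, 6, 7 and 8 (x and y axes) in the 14 thymic lymphomas. Circles are AD tumours and squares RP tumours. In the panel of chromosomes 6 and 7 (r = 0.67) AD thymic lymphomas 3 and 5 have the highest values on chromosome 6 and RP thymic lymphoma 4 the highest on chromosome 7, and in the panel of chromosomes 7 and 8 r is 0.18.

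Most of these losses were flat along the chromosome, and where the level stepped it did so mostly on chromosomes 6 and 7. A step was called where the mean of 10 bins differed by at least 0.25 from that of the 10 bins before. Chromosome 6 had 6 steps in 3 thymic lymphomas, chromosome 7 had 11 in 4 thymic lymphomas and 3 sarcomas, chromosome 3 had 1 in a sarcoma and chromosome 8 had 0. Of the 11 on chromosome 7, 9 compared bins that touch a block of Vmn1r genes described below, all 5 in sarcomas among them. The other 2 were in AD thymic lymphomas 6 and 7. The map of bins by tumour shows these as breaks of colour within a row.

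**Figure D3:**
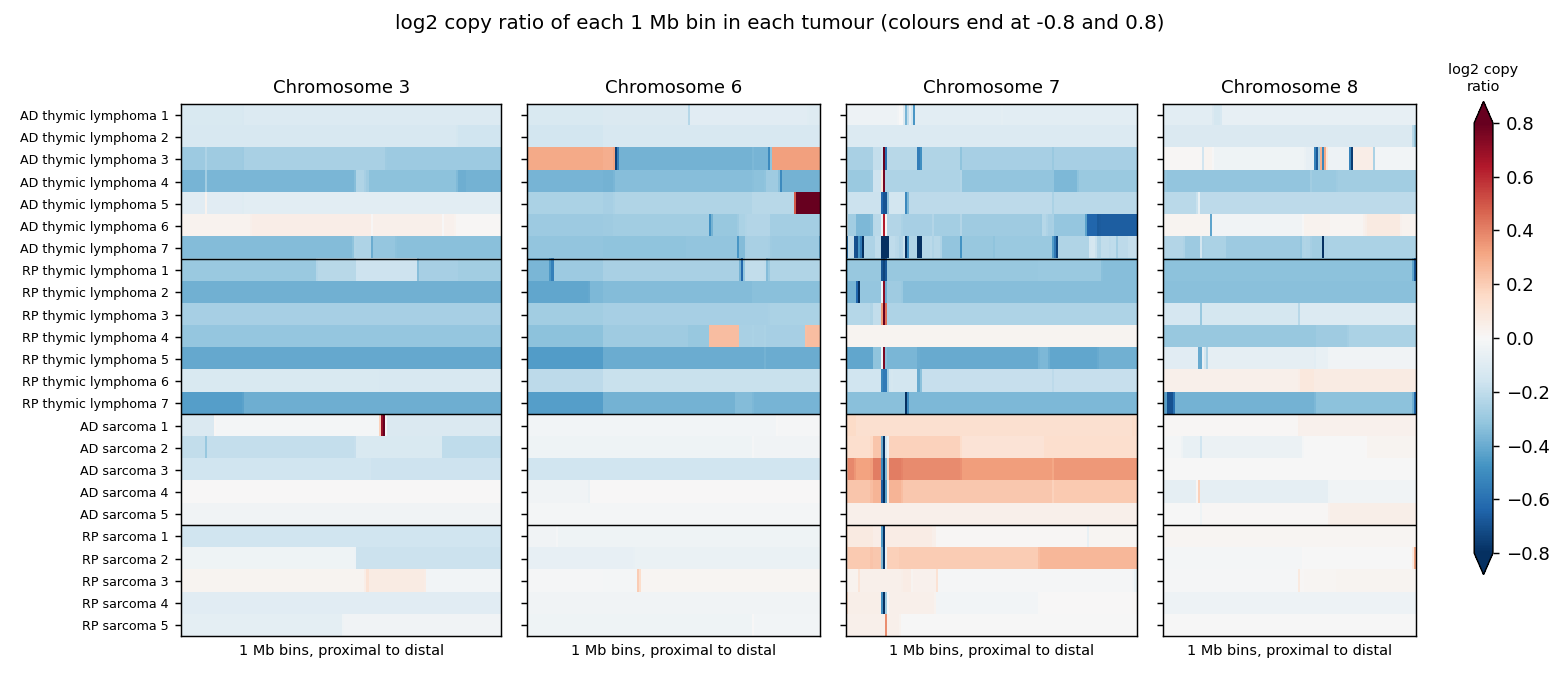
log2 copy ratio (colour, blue below 0 and red above 0) of each 1 Mb bin of chromosomes 3, 6, 7 and 8 (x axis, proximal to distal) in the 24 tumours (y axis, AD thymic lymphomas at the top, then RP thymic lymphomas, AD sarcomas and RP sarcomas). Rows of even blue include the tumours with whole losses and also flat levels short of the cutoff, such as chromosome 3 of RP thymic lymphoma 3 at -0.27. The red blocks at the distal end of chromosome 6 belong to AD thymic lymphomas 3 and 5 and RP thymic lymphoma 4. Chromosome 7 means lie above 0 in the AD sarcomas, from 0.04 in AD sarcoma 5 to 0.33 in AD sarcoma 3. RP sarcoma 2 stands at 0.21 there, and the other RP sarcomas lie close to 0.

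The distal end of chromosome 6 was raised above the stretch before it in 3 thymic lymphomas. These regions, and the other partial changes below, were picked out after their values were seen, each as the run of segments on 1 side of a level around a named gene or at the end of the chromosome. AD thymic lymphoma 5 carried the highest gain, at chromosome 6, 137522152 to 149556643, with a mean of 1.50, which is 2.82 times the comparison DNA, and the rest of the chromosome at -0.24.

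In AD thymic lymphoma 3 the last 23.9 Mb of chromosome 6, 125624538 to 149556643, stood at 0.33, or 1.26 times the comparison DNA. A second gain covered the first 44.7 Mb, 3372519 to 48047985, at 0.30. Between them lay a loss of 77.6 Mb at -0.39, or 0.762 times the comparison DNA. Its edges were deeper, at -0.80 from 48063831 to 49395634 and at -0.72 from 124625165 to 125615959. Of the genes listed, 19 lay in the loss, among them Cd8a and Cd8b1, which encode the co-receptor of cytotoxic T cells, and Cd4, the co-receptor of helper T cells, which with Lag3, Cd27 and Cdca3 fell in the deeper distal edge.

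RP thymic lymphoma 4 had 2 smaller gains on a chromosome 6 that was low elsewhere. The middle one, at chromosome 6, 94283009 to 108882408, stood at 0.25 and held Mitf, a transcription factor of pigment and other cells, and Foxp1, a transcription factor of blood and muscle. The distal one, at chromosome 6, 142086384 to 149556643, stood at 0.24, or 1.18 times the comparison DNA. Neither reached the cutoff of 0.3. The segments beside the middle gain stood at -0.30 and -0.26, and the segment before the distal gain at -0.27.

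The stretch common to the 3 gains was 7.47 Mb, chromosome 6, 142086384 to 149556643, with 52 protein-coding genes. Over the whole bins in that stretch the other 11 thymic lymphomas had -0.40 to -0.10, with a median of -0.27, and the 10 sarcomas had -0.16 to 0.01.

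Few other tumours had segments that end where these chromosome 6 changes end. No other tumour had a segment end within 100 kb of the start of any of the 3 distal gains, of either end of the middle gain, or of the start of the loss in AD thymic lymphoma 3. After the middle gain the next segment of RP thymic lymphoma 4 began at 110645867, and there a segment of RP thymic lymphoma 1 ended. Most segment ends on the 4 chromosomes were shared in that sense, 404 of 647 (62.4%), from 44.3% on chromosome 3 to 72.7% on chromosome 7. Some positions on chromosome 7 ended a segment in as many as 14 tumours.

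**Figure D4:**
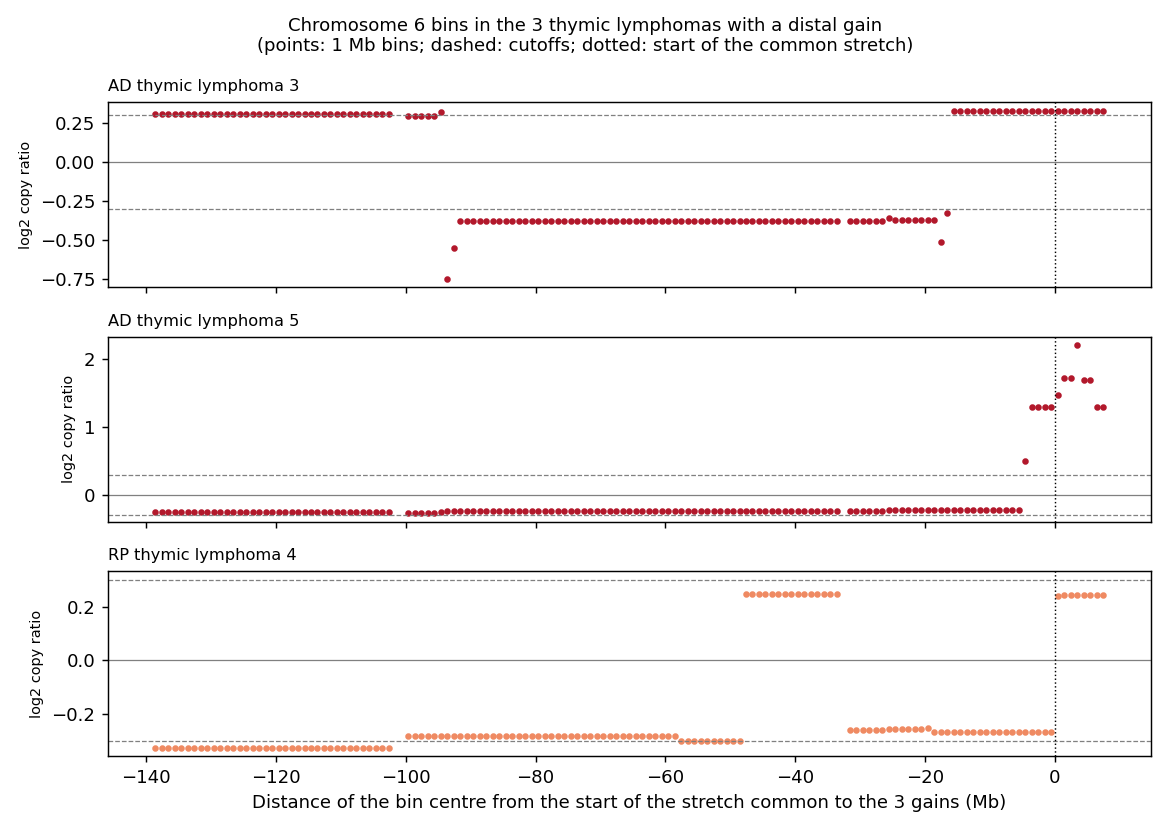
log2 copy ratio (y axis, a scale of its own in each panel) of the chromosome 6 bins of AD thymic lymphoma 3, AD thymic lymphoma 5 and RP thymic lymphoma 4, against the distance of the bin centre from the start of the stretch common to the 3 gains in Mb (x axis). Points are 1 Mb bins, dashed lines the cutoffs and the dotted line the start of the common stretch. All 3 tumours step up at or before that line, to gains with means of 0.33, 1.50 and 0.24.

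On chromosome 7, AD thymic lymphoma 6 had a deeper loss at the distal end. From 120629643 to 145321393, 24.7 Mb with 370 protein-coding genes, its mean was -0.66, or 0.635 times the comparison DNA, against -0.27 over the rest of the chromosome. No other tumour had a segment end within 100 kb of its start. The 15 listed genes there include Ccnd1, which encodes cyclin D1, Hras, a growth signalling gene, Plk1, a mitotic kinase, and Cdkn1c, a cyclin-dependent kinase inhibitor, with Ccnd1 at -0.66 and Plk1 at -0.63. Ccnd1 in the other 6 AD thymic lymphomas lay between -0.30 and -0.08. Coro1a, an actin regulator of T cells, stood at -1.09 in this tumour, and the lower of its 2 segments had 6 markers. Coro1a also stood at -1.06 in AD thymic lymphoma 7, where the nearest segments of 1 Mb or more were at -0.14 and -0.20.

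A block near the proximal end of chromosome 7, 20000001 to 23000000, broke the level in most tumours. It holds 133 annotated genes, of which 75 are Vmn1r genes, the first family of vomeronasal receptors for pheromones, and few markers fall in it. Measured against the rest of chromosome 7, it lay at least 0.3 lower in 4 thymic lymphomas and at least 0.3 higher in 6, over a range of -2.17 in AD thymic lymphoma 7 to 0.84 in RP thymic lymphoma 3. In sarcomas it was at least 0.3 lower in 6 tumours and higher in 0, over -1.11 to 0.15. Vmn1r genes are a large family of similar copies, so reads may be split between them, and the origin of these shifts was not tested. The bins with the lowest and the highest median over thymic lymphomas on chromosome 7 were both in this block, 22000001 to 23000000 at -0.34 and 21000001 to 22000000 at -0.01.

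Segments with a log2 of at least 0.7 in size and at least 20 markers numbered 43 on the 4 chromosomes, of which 31 were low. AD thymic lymphomas held 30 of them and RP thymic lymphomas 5, AD sarcomas 5 and RP sarcomas 3, and 13 of the 43 lay in the Vmn1r block. AD thymic lymphomas 3, 5 and 7 held 11, 6 and 10 of them. In thymic lymphoma 3 of the AD group a low segment on chromosome 8, 78393070 to 79371783, held Smad1, a transcription factor of BMP signalling, at -0.84. Thymic lymphoma 7 of the AD group had 93 segments on chromosome 7, against 1 to 34 in the other tumours, and its low values of Cd27 (-1.20) and Bbc3 (-0.94) rested on segments of 7, 4 and 10 markers. Cd27 is a co-stimulatory receptor of T cells, and Bbc3 encodes the death-promoting protein PUMA, a p53 target.

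Sarcomas held these chromosomes at other levels, and chromosome 7 was where the direction turned. Its mean was 0.13, 0.13, 0.33, 0.20 and 0.04 in AD sarcomas 1 to 5 and 0.01, 0.21, 0.01, -0.01 and 0.01 in RP sarcomas 1 to 5. All 5 AD sarcomas lay above 0, with RP sarcoma 2 among them and the other 4 RP sarcomas close to 0. Centred on the autosomal median, chromosome 7 was above 0 in 10 of 10 sarcomas, from 0.02 in RP sarcoma 3 to 0.41 in AD sarcoma 3. Of all the chromosome 7 bin values in sarcomas, 9.72% were gained, against 1.16% over all autosomal bins. AD sarcoma 3 held 138 of the 139, and without it the shares were 0.0777% and 0.475%. As this chromosome was chosen for its opposite directions, the 2 shares are given side by side only.

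AD sarcoma 3 had the only whole gain at the cutoff of 0.3, with 96.5% of the bins of chromosome 7 gained and a ratio of 1.26. At a cutoff of 0.2, whole gains of chromosome 7 were called in 3 sarcomas. Long segments of the gain in AD sarcoma 3 stood at 0.41 from 23353170 to 30563531 and at 0.38 from 30775327 to 59887406. The next ones stood at 0.33 from 59905103 to 104259412 and at 0.35 from 104331222 to 145321393. Of the listed genes, 37 were called gained in any sarcoma, 35 on chromosome 7, all in this tumour, and Cd2 and Nras on chromosome 3. Those on chromosome 7 include Ccne1 (0.38), which encodes cyclin E1, Myod1 (0.38), the master regulator of muscle identity, Akt2 (0.41), a kinase of insulin signalling, and Tgfb1 (0.41), a cytokine gene. Myod1 was at 0.13, 0.19, 0.38, 0.22 and 0.04 in AD sarcomas 1 to 5, against 0.04, 0.20, 0.03, 0.04 and -0.01 in RP sarcomas 1 to 5. The groups overlapped, and RP sarcoma 2 stood above 3 of the 5 AD sarcomas. RP sarcoma 2 carried chromosome 7 at 0.21, and after centring 33.6% of its bins were gained.

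Chromosome 3 was low in sarcomas by less. Its mean was -0.05, -0.17, -0.16, 0.0034 and -0.03 in AD sarcomas and -0.16, -0.10, 0.02, -0.09 and -0.05 in RP sarcomas, below 0 in 8 of 10. The groups overlapped over nearly their whole range. On chromosome 6 sarcomas lay between -0.06 and 0.01 apart from AD sarcoma 3 at -0.16, and on chromosome 8 between -0.05 and 0.02. No chromosome of the set was called lost in any sarcoma, as a whole or in part.

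AD sarcoma 1 had a focal gain on chromosome 3 over 2.5 Mb, 100578475 to 103079028, with a mean of 0.82, or 1.77 times the comparison DNA, and the rest of the chromosome at -0.06. Its highest segment, 102110239 to 103079028 with 113 markers at 1.11, holds Nras, a growth signalling gene, at chromosome 3, 103058285 to 103067914. Cd2, an adhesion molecule of T cells at chromosome 3, 101275908 to 101287939, stood at 0.64 in the same gain. In the other 9 sarcomas Nras lay between -0.17 and 0.06, and it was called lost in 2 AD and 4 RP thymic lymphomas. A segment end lay within 100 kb of the distal end of this gain in 1 other tumour, AD thymic lymphoma 3.

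The design asks whether dimeric and monomeric p53 tumours of a type differ. Mean levels of the 4 chromosomes were higher in AD than in RP thymic lymphomas on each, by amounts within the spread between tumours. Chromosome 3 ranged from -0.35 to 0.04 with a median of -0.13 in AD tumours, and from -0.41 to -0.13 with a median of -0.31 in RP tumours. The groups overlapped, with AD thymic lymphomas 2, 3, 4 and 7 inside the RP range. Their means were -0.18 ± 0.15 for AD and -0.31 ± 0.10 for RP (SD, n = 7 each), a difference of 0.13 (two-sided exact permutation p = 0.0804, adjusted over 19 autosomes 0.334).

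Chromosome 6 ranged from -0.35 to -0.06 with a median of -0.13 in AD and, in RP thymic lymphomas, from -0.41 to -0.18 with a median of -0.27. Here 3 AD tumours lay inside the RP range and 4 lay above all RP tumours. AD thymic lymphomas 3 and 5 are 2 of those 4, at -0.06 and -0.09, and their means hold regional gains. Outside the gains they stood at -0.39 and -0.24. The means were -0.19 ± 0.12 for AD and -0.30 ± 0.09 for RP, a difference of 0.11 (exact permutation p = 0.0816, adjusted 0.334, n = 7 each). With the median of the bins in place of the mean the difference was 0.04 (exact permutation p = 0.367, adjusted 0.58). Centred on the autosomal median, the differences were 0.12 for chromosome 3 (exact permutation p = 0.126) and 0.10 for chromosome 6 (exact permutation p = 0.134).

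Chromosome 7 ranged from -0.35 to -0.08 in AD and from -0.38 to 0.02 in RP thymic lymphomas, with means of -0.23 ± 0.11 for AD and -0.26 ± 0.14 for RP and a difference of 0.02 (exact permutation p = 0.737, adjusted 0.823, n = 7 each), or 0.04 with the median of the bins. Chromosome 8 ranged from -0.30 to 0.01 in AD and from -0.37 to 0.05 in RP tumours, with means of -0.14 ± 0.12 for AD and -0.21 ± 0.16 for RP and a difference of 0.07 (exact permutation p = 0.385, adjusted 0.611, n = 7 each). Both groups overlapped widely on these chromosomes. The direction on chromosome 7 rests on single tumours, since without AD thymic lymphoma 1 the difference was -0.0019. Without AD thymic lymphomas 6 and 7, which held the most segments, none of the 4 passed either (exact permutation, smallest adjusted p = 0.24).

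The share of the 568 bins called lost was 0%, 0.352%, 1.06%, 11.4%, 15.1%, 53.2% and 73.2% in AD thymic lymphomas in ascending order, and 0.176%, 0.88%, 44.7%, 49.1%, 78.2%, 98.2% and 100% in RP thymic lymphomas. Both groups held tumours with almost none lost, and 3 RP tumours lay above every AD tumour. The means were 22.1% ± 29.3 for AD and 53% ± 41.8 for RP (SD, n = 7 each), a difference of -31 points (two-sided exact permutation p = 0.132). At a cutoff of 0.5 the sign turned, to 0.931 points (exact permutation p = 0.206, n = 7 each). After centring on the autosomal median the difference was -4.3 points (exact permutation p = 0.883, n = 7 each).

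In sarcomas, chromosome 7 averaged 0.16 ± 0.11 for AD and 0.05 ± 0.09 for RP (SD, n = 5 each), a difference of 0.12 (two-sided exact permutation p = 0.103, adjusted 0.528). Without RP sarcoma 2 the difference was 0.16 (exact permutation p = 0.0159, adjusted 0.302), without AD sarcoma 5 it was 0.15 (exact permutation p = 0.0397, adjusted 0.151), and without AD sarcoma 3 it was 0.08 (exact permutation p = 0.19, adjusted 0.679). On chromosome 3 the means were -0.08 ± 0.08 for AD and -0.08 ± 0.07 for RP sarcomas, on chromosome 6 -0.05 ± 0.06 for AD and -0.03 ± 0.02 for RP, and on chromosome 8 -0.01 ± 0.03 for AD and -0.01 ± 0.02 for RP, with adjusted exact permutation p of 0.944 each. Whether the AD minus RP difference was itself unlike between thymic lymphomas and sarcomas was tested by permuting genotype within tumour type. The difference of differences was 0.13 for chromosome 3, 0.12 for chromosome 6, -0.09 for chromosome 7 and 0.07 for chromosome 8 (permutation p = 0.12, 0.0659, 0.336 and 0.381, adjusted over 19 autosomes 0.331, 0.331, 0.58 and 0.604). For chromosome 6 it was 0.06 with the median of the bins (permutation p = 0.275, adjusted 0.552).

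Bin by bin, 0 of the 568 bins differed between AD and RP thymic lymphomas after adjustment over all 2388 bins (exact permutation, smallest adjusted p = 0.417), against 0% of all bins. At an unadjusted p under 0.05 there were 23 of them, or 4.05%, against 9.88% of all bins. Both shares, and which was larger, depended on single tumours. There were 197 (34.7%, against 20.1% of all bins) without AD thymic lymphoma 4, 184 (32.4%, against 17.3%) without RP thymic lymphoma 6 and 139 (24.5%, against 17%) without AD thymic lymphoma 7. Without RP thymic lymphoma 2, 5 or 7 there were 0, against 6.03%, 8.96% and 5.86% of all bins. The share on these chromosomes was the larger in 4 of the 14 fits that left out 1 tumour. With all tumours in, the 23 were higher in AD tumours, 9 on chromosome 3, 13 on chromosome 6, 0 on chromosome 7 and 1 on chromosome 8. The median AD minus RP difference was 0.07 over the 568 bins and 0.04 over all bins. With limma, a moderated linear model, 0 bins passed and 2 of the 568 had an unadjusted p under 0.05, against 11.9% of all bins. In sarcomas 0 bins passed (exact permutation, smallest adjusted p = 0.607), against 0% of all bins, and 0 had an unadjusted p under 0.05, against 5.95% of all bins. With 5 against 5 tumours an adjusted call would have needed 380 bins at the smallest possible p of 0.00794. In sarcomas limma gave 0 adjusted calls and 73 of the 568 bins (12.9%) at an unadjusted p under 0.05, against 14.3% of all bins. The count by the exact test was 112 (19.7%, against 8.42% of all bins) without RP sarcoma 2 and 81 (14.3%, against 27.4%) without AD sarcoma 5. It was 0 without any other tumour, against 0.754% to 9.97% of all bins.

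The bins with the largest AD minus RP difference in thymic lymphomas are given for chromosomes 7, 3 and 8. On chromosome 7 it was 22000001 to 23000000 in the Vmn1r block, at -0.61 ± 0.91 for AD against -0.27 ± 0.38 for RP (difference -0.34, exact permutation p = 0.476, n = 7 each), and -0.01 without AD thymic lymphoma 7. The one on chromosome 3, 15000001 to 16000000, holds Sirpb1 genes of myeloid cell receptors and stood at -0.15 ± 0.15 for AD against -0.32 ± 0.11 for RP (difference 0.17, exact permutation p = 0.0355, adjusted 0.417, n = 7 each). That on chromosome 8, 21000001 to 22000000, holds defensin genes, which encode antimicrobial peptides and form a repeated family, and stood at -0.12 ± 0.12 for AD against -0.29 ± 0.15 for RP (difference 0.17, exact permutation p = 0.0449, adjusted 0.46, n = 7 each). In sarcomas the largest on chromosome 3 was the bin beside Nras, 102000001 to 103000000, with a difference of 0.23 that was -0.0009 without AD sarcoma 1.

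The 116 genes looked up on these chromosomes followed the levels of their bins, and 114 of them lay on members. Each was called lost in 3 to 7 of the 14 thymic lymphomas, with a median of 5, and 77 of the 114 in 5 or more. Of the bin values in thymic lymphomas, 37.6% on these chromosomes and 20.1% over all autosomal bins were lost. Low values chose these chromosomes, so nothing is read from these counts or from those by list. Lost calls in any sarcoma numbered 0. The 36 T-cell genes had a median level of -0.24 in thymic lymphomas and -0.03 in sarcomas, and 22 of them were lost in 5 or more thymic lymphomas. Cd8a, for example, was lost in 3 AD and 3 RP tumours, Lyl1, a transcription factor of early blood cells, in 0 and 3, and Irf2, an interferon regulatory factor, in 1 and 4. Such counts per gene, here and below, are calls at the cutoff and not tests of genotype. Lyl1 stood at -0.2959 in AD thymic lymphoma 4, just short of a loss. Its means were -0.13 for AD and -0.19 for RP tumours (exact permutation p = 0.442 for its bin). Ezh2, a histone methyltransferase gene, was lost in 2 and 3 and stood at 0.29 in AD thymic lymphoma 3.

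The 28 growth signalling genes had a median of -0.24 in thymic lymphomas and -0.01 in sarcomas, with 22 lost in 5 or more thymic lymphomas. Nras reached 1.11 in AD sarcoma 1. Among the 16 cell cycle genes, with medians of -0.24 and -0.01, 9 were lost in 5 or more. Cdkn1b, an inhibitor of cyclin-dependent kinases, was lost in 1 AD and 3 RP thymic lymphomas and gained in 1 AD, and Cks1b, a cofactor in its degradation, in 0 AD and 4 RP. The 20 genes of genome maintenance and cell death had medians of -0.23 and -0.0039, with 14 lost in 5 or more. Bax, which encodes a death-promoting protein, was lost in 0 AD and 4 RP. The 14 muscle and connective tissue genes had medians of -0.24 and -0.02, with 10 lost in 5 or more, and Col1a2, a collagen I chain, was lost in 2 AD and 5 RP and gained in 1 AD thymic lymphoma.

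Across lists, 3 of 114 genes (2.63%, against 9.88% of all bins) lay in bins with an unadjusted p under 0.05 between AD and RP thymic lymphomas, Cks1b (exact permutation p = 0.0326), Mef2d (exact permutation p = 0.0449), a muscle transcription factor gene, and Col1a2 (exact permutation p = 0.0355), and 0 did in sarcomas. A gene's value is that of its segment, which neighbouring genes share, and over all 114 genes the median was -0.24 in thymic lymphomas and -0.01 in sarcomas.

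Thymic lymphomas had a mean of -0.24 on chromosome 7, against 0.10 in sarcomas, a gap of -0.35 that was the lowest of the 19 autosomes. The gap was -0.21 for chromosome 6, -0.17 for chromosome 8 and -0.16 for chromosome 3. After centring these were -0.26, -0.12, -0.08 and -0.08. Chromosome 3, the last of the set, stood just inside, and the next autosomes were chromosome 18 at -0.15 and chromosome 17 at -0.09, with 0.0006 for chromosome 17 after centring. Chromosomes 13 and 19, at -0.31 and -0.23, had lower gaps than chromosomes 6, 8 and 3 and are not members.

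In properties that the choice did not use, the 4 chromosomes were unlike each other. Chromosome 7 had 14.2 protein-coding genes per bin, the most of 19 autosomes, and 114 markers per Mb. Chromosome 3 had 6.26 genes per bin and 61.3 markers per Mb, the 18th of 19. Chromosomes 6 and 8 lay between, with 7.71 and 8.41 genes per bin and 73.1 and 84.6 markers per Mb. Autosomal marker totals separated the 4 groups, at 204845 to 204849 for AD thymic lymphomas, 204917 to 204922 for RP thymic lymphomas, 205075 to 205076 for AD sarcomas and 205073 to 205074 for RP sarcomas. Whatever step set these totals runs along with genotype and with tumour type, and the 2 cannot be told apart.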

How the data were processed

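Exomes of 24 tumours were analysed from copy number segment tables. Reads of 150 nt were handled with Trim Galore 0.6.5, BWA 0.7.17 and GATK 4.1.0.0 on GRCm38, per the submitters' processing notes. Each deposited table gives segments with a marker count and a segment mean, which the authors named seg.mean in the file headers and which is read here as a log2 copy ratio. For the log base, comparison DNA, segmentation settings and centring nothing is given in the sources used here, and read depth is unknown. The 4 ear samples were not analysed here.

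Each 1 Mb bin took the mean of its segments weighted by overlap, as deposited and also centred on the tumour's length-weighted autosomal median. The chromosomes were chosen by their measured values, and the gene lists, cutoffs and tests were chosen with earlier results of these data known. AD and RP tumours were set against each other by exact two-sided permutation (3432 splits of 7 against 7, 252 of 5 against 5), with Benjamini-Hochberg adjustment over 2388 bins or 19 autosomes. Differences of differences and correlations used 100000 permutations. Bins named in the text were, per chromosome, those with the lowest and highest thymic lymphoma median and the largest genotype differences, and genes were, per list, those with the lowest and highest values or nearest to a step, with other genes given as examples. All bins fitted were also tested with limma 3.58.1 (R 4.3.3), and scipy 1.17.1, pandas 2.3.3 and numpy 2.4.6 in Python 3.11.15 did the rest. The bin tests were tested on simulated data. Alternatives were centring, medians of bins, 5 Mb bins, segments of at least 10 markers, other cutoffs, limma and leaving out each tumour. Gene positions came from RefSeq on GRCm38.p6. Some results for chromosome 6 that the naming rule selects are not reported here.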

Additional observations from a re-analysis of the deposited data

Results flagged for a closer look

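Among 16 combinations of chromosome and group, 2 held a tumour far from the others of its group, by a test that marks about 1 in 20 groups by chance. On chromosome 6, AD sarcoma 3 had the lowest mean of the AD sarcomas, -0.16, against -0.03 for the nearest, and the gap took up 0.803 of the group's range. On chromosome 7, RP sarcoma 2 had the highest mean of the RP sarcomas, 0.21, against 0.01 for the nearest, and the gap took up 0.896 of the range. Both values are chromosome-wide means, and the origin of neither was tested.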

How the results depend on the processing

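No adjusted AD minus RP call appeared under any alternative run, for chromosome means or for bins, and the adjusted bin counts were 0 throughout. Leaving out each tumour in turn, the differences in thymic lymphomas spanned 0.09 to 0.16 on chromosome 3, 0.09 to 0.13 on chromosome 6, -0.0019 (without AD thymic lymphoma 1) to 0.069 on chromosome 7 and 0.04 to 0.11 on chromosome 8. In sarcomas they spanned -0.026 to 0.019 on chromosome 3, -0.029 to 0.011 on chromosome 6, 0.077 to 0.16 on chromosome 7 and -0.010 to 0.010 on chromosome 8, where centring also turned the sign, to 0.0006. The difference in the percent of bins lost spanned -39.8 to -23.2 points and turned to 0.931 points at a cutoff of 0.5. The cause of these turns was not tested.

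The correlation of chromosomes 3 and 6 no longer passed within AD tumours (r = 0.31). That of chromosomes 3 and 8 did not pass within AD (0.67) or RP tumours (0.57), without the 2 tumours farthest from the median (0.62), or without AD thymic lymphomas 6 and 7 (0.51). Leaving out those tumours was decided once the values were known. That of chromosomes 6 and 7 did not pass within AD tumours (0.66) or without those 2 tumours (0.65), and that of chromosomes 3 and 7 passed without the 2 farthest (0.65). Fewer tumours enter each of these. Whole losses depended on the cutoff. At 0.2 they were called in 3 AD and 6 RP thymic lymphomas on chromosome 3, 4 and 6 on chromosome 6, 5 and 5 on chromosome 7, and 3 and 4 on chromosome 8, and at 0.5 in 0. After centring, RP thymic lymphoma 5 alone kept whole losses. Of 281 values under the alternatives run, 241 kept their direction and their side of the threshold or moved by less than the set limit, 12 changed sign, 20 moved by more, 7 no longer passed and 1 newly passed. Medians of bins more than halved the chromosome 6 difference in thymic lymphomas, to 0.0444. No paired analysis was possible because the labels give the tumours no shared replicate numbers. Unknown read depth and shares of normal cells limit how partial losses can be read.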
